A study of Mus musculus with 4 samples.

Results

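Oxidative phosphorylation genes were followed across germ cells of Plzf +/+ and Plzf lu/lu testes, with the genes of the nuclear genome set beside those of the mitochondrial genome. Members were the rows of the count tables whose symbols begin with Ndufa, Ndufb, Ndufc, Ndufs, Ndufv, Uqcr, Cox4, Cox5, Cox6, Cox7, Cox8, Atp5, mt-Nd, mt-Co, mt-Atp or mt-Cytb, together with Sdha, Sdhb, Sdhc and Sdhd, and with pseudogene symbols left out. This gave 104 of 26041 gene symbols, 92 of them nuclear and 12 mitochondrially encoded. The rule used names only and no measured value. The cells carried an Eomes-tdTomato knock-in allele on a B6N background, came from mice 4 wk of age, were sorted on tdTOMATO out of dispersed testes into wells of 4 plates, and had the 3′ ends of their transcripts sequenced, each molecule tagged with a unique molecular identifier (UMI). Plzf +/+ replicates 1, 2 and 3 came from plates 1, 2 and 4 (317, 303 and 277 cells), and Plzf lu/lu replicates 1 and 2 from plates 3 and 4 (314 and 38 cells). Both genotypes share the reporter allele, the age and the sort, so the lu/lu cells are those that still passed an Eomes reporter gate, and lu is the luxoid mutation of Plzf, which the tables list as Zbtb16. The labels name plates but no animals, so tests between libraries measure the spread between plates and genotypes, which may hold technical variation.

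Oxidative phosphorylation passes electrons from NADH and succinate through complexes I and II to ubiquinone, complex III, cytochrome c and complex IV, and the proton gradient built on the way drives ATP synthase, complex V. Complexes I, III, IV and V combine subunits from both genomes, while complex II is made from nuclear genes alone. Spermatogonial stem cells are known for leaning on glycolysis, and male germ cells switch on germline-specific isoforms of several cytochrome c oxidase subunits as they enter meiosis.

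Libraries held 254514 to 2608702 UMIs, with a median of 5942 UMIs per cell (612 to 95069). Zbtb16 itself was at 77.0, 53.1 and 70.3 CPM (UMIs scaled to equal library totals) in Plzf +/+ replicates 1, 2 and 3 and at 17.6 and 11.8 CPM in Plzf lu/lu replicates 1 and 2. The germ cell marker Dazl was detected in 86.8 to 95.6% of the cells of each library. Eomes was low throughout, at 11.5 to 20.7 CPM in Plzf +/+ and at 1.92 and 0 CPM in Plzf lu/lu libraries. Of 376 well barcodes 358 occurred in more than 1 library, because each plate used the same barcode set, and 0 were shared by the libraries of plate 4.

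Cells with at least 0.5% of their UMIs from a list of somatic markers (40 cells) or of spermatid markers (78 cells) were set apart, and the other 1131 cells are called gate cells. Gate cells with a UMI of Kit or Stra8, genes switched on at differentiation, were taken as Kit/Stra8-positive (312 cells). The remaining cells with a UMI of Gfra1, the GDNF receptor of undifferentiated spermatogonia, were Gfra1-positive (492 cells) and those without were Gfra1-negative (327 cells). These classes are ranges along marker levels, not cell types, and a cell without a UMI need not lack the transcript. The median depth was 6343 UMIs in Gfra1-positive, 4249 in Gfra1-negative and 7523 in Kit/Stra8-positive cells.

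The nuclear members held 263917 UMIs, 2.82% of all, and the mitochondrial members 128582 UMIs, 1.37% of all. The nuclear members comprised 36 genes of complex I, 4 of complex II, 8 of complex III, 19 of complex IV, 18 of complex V and 7 Ndufaf assembly factors of complex I. Ndufa4 and its relative Ndufa4l2, named as complex I genes but now placed with complex IV, were counted under complex IV. All symbols starting with Atp5, Atp5sl and Atp5s included, were counted under complex V by name alone. Among nuclear members Cox4i1, the main isoform of cytochrome c oxidase subunit 4, had the most UMIs (17379, in 98.2% of cells), whereas its alternative isoform Cox4i2 had 2. Among mitochondrial members mt-Cytb, the cytochrome b of complex III, led with 40587 UMIs in 99.7% of cells, followed by mt-Nd1 of complex I with 33214. Each molecule was counted once at its 3′ end, so these levels do not scale with transcript length.

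Mitochondrial detection was uneven among genes that lie on the same circular genome. Only 2 UMIs were assigned to mt-Atp6, 1 to mt-Co2, 1 to mt-Nd4l and 32 to mt-Co3, although these genes encode core subunits of complexes V, IV and I. The last bases of each of these 4 transcripts matched a stretch of nuclear chromosome 1 at 100% identity in the NCBIM37 genome, for mt-Co2 at chr1:24621721-24622020, where the closest nuclear match of the well counted mt-Cytb had 92.7% identity. The ends of mt-Co1 and mt-Nd3, with 15044 and 2895 UMIs, also matched that stretch at 100% identity. The effect of the nuclear copy on the counts was not tested, and the mitochondrial share below rests on the other 8 genes.

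Promoters of the nuclear members were compared by sequence, as these genes stand on many chromosomes. RefSeq promoters of 300 bases (250 before and 50 after the start, GRCm38.p6) were matched for 72 of the 92. Letters of 5 motifs were searched on both strands, and the end of the ETS letters equals the start of the YY1 letters, so those can overlap. GCGCANGCGC, bound by NRF1, a regulator of respiratory chain genes, occurred in 19 of the 72 (26.4%) and in 5.19% of all promoters. The ETS motif CCGGAAG, read by GABP, occurred in 17 (23.6%) against 9.93%, and the YY1 motif AAGATGGC in 9 (12.5%) against 3.19%. The CRE TGACGTCA was found in 4 (5.56%) against 2.03%, and CCAAT in 32 (44.4%) against 41.1%. Of the 39 members called higher in Plzf lu/lu cells below, 35 had a promoter and 9 of those (25.7%) held the NRF1 letters, against 9 of 36 (25.0%) among the nuclear members not called. In the same order ETS letters were in 7 (20.0%) against 10 (27.8%) and YY1 letters in 5 (14.3%) against 4 (11.1%). CRE letters were in 1 (2.86%) against 3 (8.33%) and CCAAT in 18 (51.4%) against 14 (38.9%). The promoters shown are those of Ndufc1 (chr3:51408906-51409205, minus strand) and Ndufb4 (chr16:37654319-37654618, minus), both higher in Plzf lu/lu cells, of Atp5g1 (chr11:96075582-96075881, minus) and Cox7b (chrX:106015450-106015749, plus), the members called in Gfra1-positive cells, and of the somatic and germline isoforms Cox6b1 (chr7:30626065-30626364, minus) and Cox6b2 (chr7:4753045-4753344, minus). Each is written 5′ to 3′ along its gene, and capitals mark the letters of any of the 5 motifs on either strand.
Ndufc1: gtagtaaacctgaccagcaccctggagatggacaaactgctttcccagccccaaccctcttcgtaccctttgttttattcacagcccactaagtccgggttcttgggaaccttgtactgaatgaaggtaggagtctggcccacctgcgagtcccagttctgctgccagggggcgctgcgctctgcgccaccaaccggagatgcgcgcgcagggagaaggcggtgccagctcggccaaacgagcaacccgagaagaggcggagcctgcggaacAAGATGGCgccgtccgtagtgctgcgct
Ndufb4: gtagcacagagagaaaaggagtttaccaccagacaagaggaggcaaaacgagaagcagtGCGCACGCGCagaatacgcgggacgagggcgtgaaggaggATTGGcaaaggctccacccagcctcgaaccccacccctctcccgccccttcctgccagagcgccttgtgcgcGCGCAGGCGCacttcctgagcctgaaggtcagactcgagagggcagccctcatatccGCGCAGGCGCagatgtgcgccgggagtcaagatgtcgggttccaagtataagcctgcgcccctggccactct
Atp5g1: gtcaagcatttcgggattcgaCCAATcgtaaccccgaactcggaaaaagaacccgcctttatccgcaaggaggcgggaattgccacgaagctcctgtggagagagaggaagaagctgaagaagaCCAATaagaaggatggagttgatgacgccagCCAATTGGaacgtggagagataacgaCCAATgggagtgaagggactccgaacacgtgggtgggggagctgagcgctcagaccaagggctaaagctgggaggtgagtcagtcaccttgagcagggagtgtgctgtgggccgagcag
Cox7b: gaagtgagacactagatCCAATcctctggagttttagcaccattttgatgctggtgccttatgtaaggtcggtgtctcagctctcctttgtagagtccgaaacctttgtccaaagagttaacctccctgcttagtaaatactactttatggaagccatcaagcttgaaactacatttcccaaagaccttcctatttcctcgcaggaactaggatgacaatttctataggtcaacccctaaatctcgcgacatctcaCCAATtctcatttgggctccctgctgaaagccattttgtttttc
Cox6b1: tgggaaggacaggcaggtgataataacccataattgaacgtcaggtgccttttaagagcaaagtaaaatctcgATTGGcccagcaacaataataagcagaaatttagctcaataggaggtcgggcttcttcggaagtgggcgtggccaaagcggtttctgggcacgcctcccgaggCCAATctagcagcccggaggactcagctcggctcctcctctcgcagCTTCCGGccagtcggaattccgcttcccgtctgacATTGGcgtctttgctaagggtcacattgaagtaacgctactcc
Cox6b2: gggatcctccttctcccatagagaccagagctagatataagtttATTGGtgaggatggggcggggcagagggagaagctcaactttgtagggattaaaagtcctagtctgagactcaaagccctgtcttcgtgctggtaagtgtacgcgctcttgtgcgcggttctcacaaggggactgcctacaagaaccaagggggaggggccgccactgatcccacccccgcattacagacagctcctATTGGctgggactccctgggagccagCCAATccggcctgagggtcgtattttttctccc
Capitals in Ndufc1 are YY1 letters close to the start, those in Ndufb4 are NRF1 and CCAAT letters, and those in Cox6b1 are ETS and CCAAT letters. Cox6b2, Atp5g1 and Cox7b held only CCAAT among the letters searched.

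Nuclear members took a larger share of the UMIs of Plzf lu/lu than of Plzf +/+ cells, and mitochondrial members did not. In all cells the nuclear share was 2.74, 2.72 and 2.47% in Plzf +/+ replicates 1, 2 and 3 and 3.22 and 2.93% in Plzf lu/lu replicates 1 and 2. The means were 2.64% ± 0.1495 (SD, n = 3) and 3.07% ± 0.205 (SD, n = 2), and both lu/lu libraries lay above all +/+ libraries. The mitochondrial share was 1.52, 1.29 and 1.35% in Plzf +/+ and 1.35 and 1.29% in Plzf lu/lu libraries, so the groups overlapped. Nuclear UMIs per mitochondrial UMI were 1.80, 2.11 and 1.83 against 2.38 and 2.26. Counting error was smaller than these differences: the widest 95% Wilson interval of a nuclear share, in the library with the fewest UMIs, ran from 2.86 to 2.99%, and such intervals cover counting error only.

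The nuclear share of both Plzf lu/lu libraries exceeded that of every Plzf +/+ library in each of the spermatogonial classes. It was 2.62, 2.76 and 2.43% against 3.17 and 2.81% in Gfra1-positive cells and 2.98, 2.77 and 2.63% against 3.47 and 3.72% in Gfra1-negative cells. In Kit/Stra8-positive cells it was 2.90, 2.92 and 2.58% against 3.27 and 3.03%. Plzf lu/lu replicate 2 had only 11, 12 and 9 cells in these classes, in the order given. In Gfra1-positive cells its 95% Wilson interval of 2.70 to 2.92% held the 2.76% of Plzf +/+ replicate 2, and in Kit/Stra8-positive cells its interval of 2.92 to 3.15% overlapped the 2.88 to 2.96% of Plzf +/+ replicate 2, so in both classes that library was not separate within counting error. The mitochondrial share showed no such order in Gfra1-positive cells (1.47, 1.26 and 1.43% against 1.29 and 1.44%). In Gfra1-negative cells it was lower in both Plzf lu/lu libraries, at 1.57, 1.61 and 1.58% in Plzf +/+ and 1.32 and 1.19% in Plzf lu/lu. The spermatocyte list moved with genotype there, at 0.0815 to 0.133% of UMIs in Plzf +/+ and 0.206 and 0.222% in Plzf lu/lu libraries, and its part in the lower mitochondrial share was not tested.

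**Figure D1:**
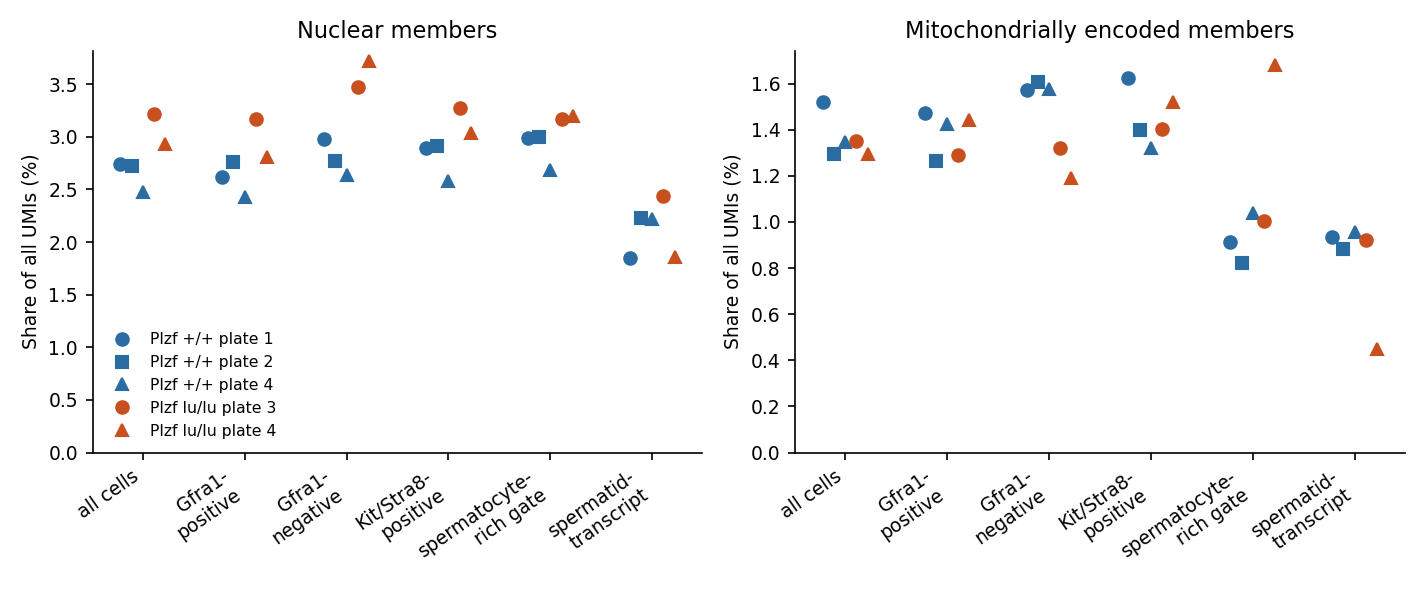
Share of all UMIs (%, axes from 0) held by the nuclear (left) and the mitochondrially encoded members (right) in each library, by cell class, with blue points for Plzf +/+ and orange points for Plzf lu/lu libraries and a marker shape for each plate. In all cells the orange points for nuclear members (2.93 and 3.22%) sit above the blue (2.47 to 2.74%), and those for mitochondrial members lie among the blue.

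Other lists also differed between the genotypes over all cells. The G2 and mitosis list held 0.341 to 0.375% of UMIs in Plzf +/+ and 0.250 to 0.251% in Plzf lu/lu libraries. Among gate cells highest for that list (the upper of 3 equal parts of each library) the nuclear share was 2.88, 2.90 and 2.69% against 3.22 and 3.18%, and in the lowest part 2.65, 2.62 and 2.41% against 3.36 and 3.12%, so the order of the genotypes was the same in both. The Sertoli cell list, in which each of the 10 genes had a UMI, held 0.0150 to 0.0198% against 0.0515 to 0.0892%. Cells above the somatic threshold had a nuclear share of 2.37% in Plzf +/+ and 2.68% in Plzf lu/lu, below the 3.28% of Plzf lu/lu gate cells. The undifferentiated list held 0.173 to 0.189% of UMIs in Plzf +/+ and 0.156 to 0.169% in Plzf lu/lu libraries. It includes the mutated gene Zbtb16 as well as Gfra1 and Eomes, and its difference without these genes was not tested. Gfra1 itself was at 239, 232 and 206 CPM in Plzf +/+ and 128 and 134 CPM in Plzf lu/lu libraries. The part of these lists in the difference of the nuclear share between the genotypes was not tested.

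Gene by gene, no member passed the test between genotypes in all cells (0 of 96 members tested; quasi-likelihood test of edgeR, p adjusted by Benjamini-Hochberg among 13728 genes). Over all genes 0.583% were called higher and 0.233% lower. At an unadjusted p under 0.05 there were 40 members, all of them higher in Plzf lu/lu. Of all 13728 genes 14.2% were in either direction, and 1175 were higher. DESeq2 called 0, with 15 at an unadjusted p under 0.05, where 6.75% of all genes were in either direction. The lowest adjusted p belonged to Atp5g1, a gene for the proton-carrying c ring of ATP synthase. It was at 317, 250 and 248 CPM in Plzf +/+ and 496 and 418 CPM in Plzf lu/lu libraries (log2 fold change 0.76 ± 0.16 SE, edgeR adjusted p = 0.0786). Its sister genes Atp5g3 and Atp5g2 encode the same mature c subunit; Atp5g3 was at 345, 292 and 281 against 407 and 402 CPM and Atp5g2 had 19 UMIs in all.

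The nuclear members nonetheless leaned one way. Their median log2 fold change was 0.29, with 70 of 88 above 0, beside 0.00 over all genes and 0.01 for the 8 mitochondrial members. Both Plzf lu/lu libraries lay above all Plzf +/+ libraries for 51 of 88 nuclear members (58.0%), against 18.5% of all genes tested, and below them for 1 of 88, against 15.97%. By complex this count was 25 of 36 for complex I, 1 of 4 for complex II, 5 of 8 for complex III, 7 of 17 for complex IV, 11 of 16 for complex V and 2 of 7 assembly factors. The single mitochondrial member in this position was mt-Nd6, at 39.3, 27.9 and 50.2 against 55.0 and 88.5 CPM. Within plate 4, which held both genotypes, 71 of 88 nuclear members were higher in the Plzf lu/lu library, with a median of 0.23 beside -0.07 over all genes. All genes fitted gave 80 higher and 32 lower calls here, and 78 and 54 without TMM scaling. Without Plzf +/+ replicate 1, 28 members were called, 26 of them higher, where 5.35% of all genes were called higher and 4.83% lower. With every cell thinned to 2000 UMIs 14 were called, all higher, where 2.35% of all genes were higher and 2.27% lower. Without a filter 5 and in gate cells 3 were called, all higher, where 1.33 and 1.29% of all genes were.

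A minority of gate cells carried spermatocyte transcripts, and they were unevenly spread among the libraries. At least 0.2% of UMIs came from the 9 spermatocyte markers in 77 of the 1131 gate cells, and these are called spermatocyte-rich. They numbered 7, 28 and 21 in Plzf +/+ and 19 and 2 in Plzf lu/lu libraries. The threshold was chosen after the data had been seen and cuts a continuum, with 264 cells at or above 0.1% and 37 at or above 0.4%. Because Cox6b2 and Cox8c UMIs came largely from these cells, the genotypes were compared again in the remaining 1054 gate cells, and the calls below belong to that added comparison.

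In gate cells without spermatocyte-rich cells, 39 of 95 members tested were higher in Plzf lu/lu and 0 were lower, all 39 of them nuclear (edgeR, adjusted p under 0.05). Among all 11809 genes 7.72% were called higher and 7.05% lower. The median log2 fold change was 0.31 for the nuclear members, with 74 of 87 above 0, -0.06 for the mitochondrial members, with 1 of 8 above 0, and -0.01 over all genes. The mix of classes differed between the genotypes: Plzf +/+ libraries held 150, 125 and 110 Gfra1-positive and 64, 51 and 72 Gfra1-negative cells here, and Plzf lu/lu libraries 72 and 11 Gfra1-positive and 100 and 11 Gfra1-negative cells. The part of this mix in the 39 calls was not tested, and the calls within Gfra1-positive cells alone are given below. The nuclear share of UMIs was 2.77, 2.77 and 2.50% against 3.32 and 3.08%. The mitochondrial share was lower in both Plzf lu/lu libraries, at 1.56, 1.504 and 1.501% against 1.40 and 1.41%. DESeq2 called 13 members, all higher, where 1.66% of all genes were higher and 1.38% lower. Without TMM scaling 28 members were higher and mt-Co1 was called lower, over all genes with 778 higher and 952 lower calls in place of 912 and 833, and without a filter 27 were higher and mt-Co1 lower, beside 3.3% and 3.31% of all genes. Without Plzf +/+ replicate 3 mt-Nd6 was called higher. Without Plzf lu/lu replicate 1, which leaves the 30 cells of replicate 2, 6 were called, 5 higher and 1 lower, beside 1.23% and 0.99% of all genes. Without Plzf +/+ replicate 2 or 3 the count was 18 or 23, all higher, beside 5.19 or 5.69% of all genes.

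**Figure D2:**
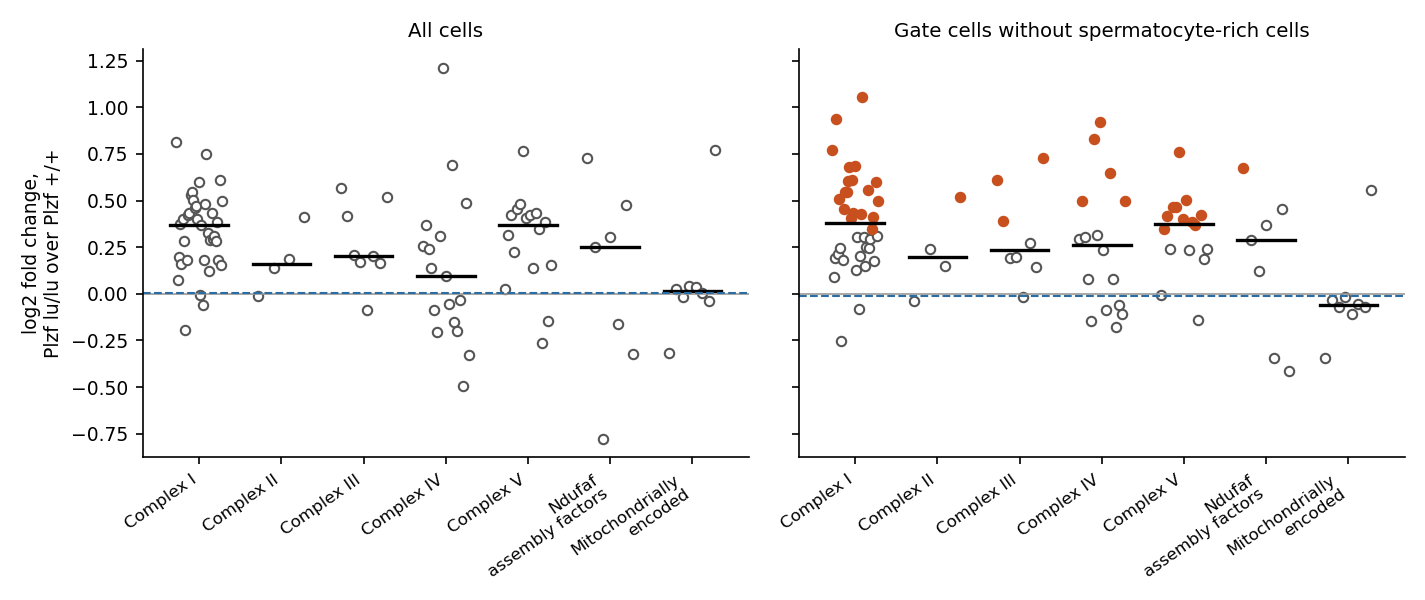
Log2 fold change of each member, Plzf lu/lu over Plzf +/+, by complex, in all cells (left) and in gate cells without spermatocyte-rich cells (right). Filled orange points passed an edgeR adjusted p under 0.05, black bars are medians and the dashed line is the median of all genes. No point is filled on the left, 39 nuclear members are filled on the right, and the mitochondrial members lie around 0 on both sides apart from mt-Co1 and mt-Nd6.

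Complex I, which takes electrons from NADH, supplied 19 of the 39, from 36 genes tested. The accessory subunit gene Ndufc1 changed most, at 195, 176 and 178 CPM in Plzf +/+ and 400 and 341 CPM in Plzf lu/lu libraries. The groups were far apart, with a log2 fold change of 1.05 ± 0.13 (SE, edgeR adjusted p = 3.17e-07). Ndufa12, another accessory subunit gene, was at 79.2, 76.9 and 48.4 against 132 and 133 CPM (log2 0.94), and Ndufa1 at 103, 93.2 and 73.3 against 156 and 148 CPM (0.77). Ndufb4 and Ndufb10, of the membrane arm, rose by 0.68 each on the log2 scale. Ndufv1, the flavoprotein that binds NADH, rose from 230, 238 and 236 to 329 and 415 CPM, a change of 0.60 on the log2 scale. Ndufaf1, an assembly factor, rose by 0.68 and was the only one called of 7. Ndufa5 (-0.25) and Ndufaf7 (-0.41) had the lowest values of these groups and were not called.

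Complex II also serves the tricarboxylic acid cycle, where it oxidises succinate. Its membrane anchor gene Sdhd was at 145, 144 and 97.5 CPM in Plzf +/+ and 204 and 128 CPM in Plzf lu/lu libraries, so the groups overlapped although it was called (log2 0.52, edgeR adjusted p = 0.0482). Without Plzf lu/lu replicate 1 its value was -0.04. The flavoprotein gene Sdha had a log2 fold change of -0.04, Sdhb of 0.24 and Sdhc of 0.15, none of them called.

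In complex III, 3 of 8 nuclear members were called. The small subunit gene Uqcrq was at 318, 312 and 287 against 525 and 474 CPM (log2 0.73 ± 0.12 SE, edgeR adjusted p = 7.44e-05) and Uqcr10 at 269, 228 and 205 against 371 and 331 CPM (0.61). Uqcr11 rose by 0.39, but its transcript end has a near-identical copy elsewhere in the genome, so its counts are uncertain; the same holds for Ndufb11, Atp5h and Ndufs3 among the called members. The core protein gene Uqcrc2 was at -0.02 and the mitochondrial partner mt-Cytb at -0.04 on the log2 scale. mt-Cytb ran at 4769, 4797 and 4769.5 CPM in Plzf +/+ and 4743 and 4574 CPM in Plzf lu/lu libraries.

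Complex IV, cytochrome c oxidase, was divided, with 5 of 16 nuclear members called. Cox7b, a small structural subunit gene, was at 222, 190 and 214 against 338 and 301 CPM (log2 0.65 ± 0.13 SE, edgeR adjusted p = 0.000676). Cox5a rose by 0.50, as did Ndufa4, which is counted here. The isoform genes Cox7a1 (16.97, 11.9 and 14.7 against 24.8 and 44.5 CPM) and Cox6b2 (20.6, 26.3 and 22.0 against 38.2 and 54.3 CPM) were called at 0.92 and 0.83 from low levels. At an equal depth of 2000 UMIs per cell, Cox6b2 was detected in 4.71% and Cox7a1 in 3.21% of these gate cells, and in 34.6 and 23.1% of the cells above the somatic threshold. Over all cells the Sertoli cell list was higher in both Plzf lu/lu libraries (above), but those include the cells above the somatic threshold, which are left out here. The part of Sertoli cells, or of RNA from them, in these calls was not tested. Cox6b1 (-0.14), Cox8a (-0.06), Cox8c (-0.11), Cox7b2 (0.08), Cox6a1 (0.08), Cox7a2 (0.24) and Cox4i1 (0.29, adjusted p = 0.0578 by edgeR) were not called. The catalytic subunit gene mt-Co1 had the lowest value of any member but Ndufaf7, at 1909.6, 1742 and 1872 against 1690.4 and 1156 CPM (log2 -0.34 ± 0.13 SE, edgeR adjusted p = 0.0612).

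Complex V had the largest called share among the complexes with more than 4 genes, 10 of 16. Atp5g1 led again, at 331, 296 and 291 against 560 and 449 CPM (log2 0.76 ± 0.13 SE, edgeR adjusted p = 5.51e-05). Atp5b (0.35), Atp5c1 (0.42), Atp5e (0.47), Atp5f1 (0.47), Atp5o (0.42) and Atp5h (0.50) were also called. Atp5a1, the gene of the large subunit beside that of Atp5b in the catalytic head, was at 602, 580 and 522 against 558 and 578 CPM. Its groups overlapped, with a log2 fold change of -0.01.

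The 6 mitochondrial members of complex I tested showed little between the genotypes in the same cells. mt-Nd1 was at -0.07, mt-Nd2 at -0.02, mt-Nd3 at -0.11, mt-Nd4 at -0.06 and mt-Nd5 at -0.07 on the log2 scale. mt-Nd6, the only protein gene read from the light strand, was at 38.1, 29.4 and 61.6 against 55.7 and 93.8 CPM, overlapping between the groups (log2 0.56 ± 0.28 SE, edgeR adjusted p = 0.205).

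**Figure D3:**
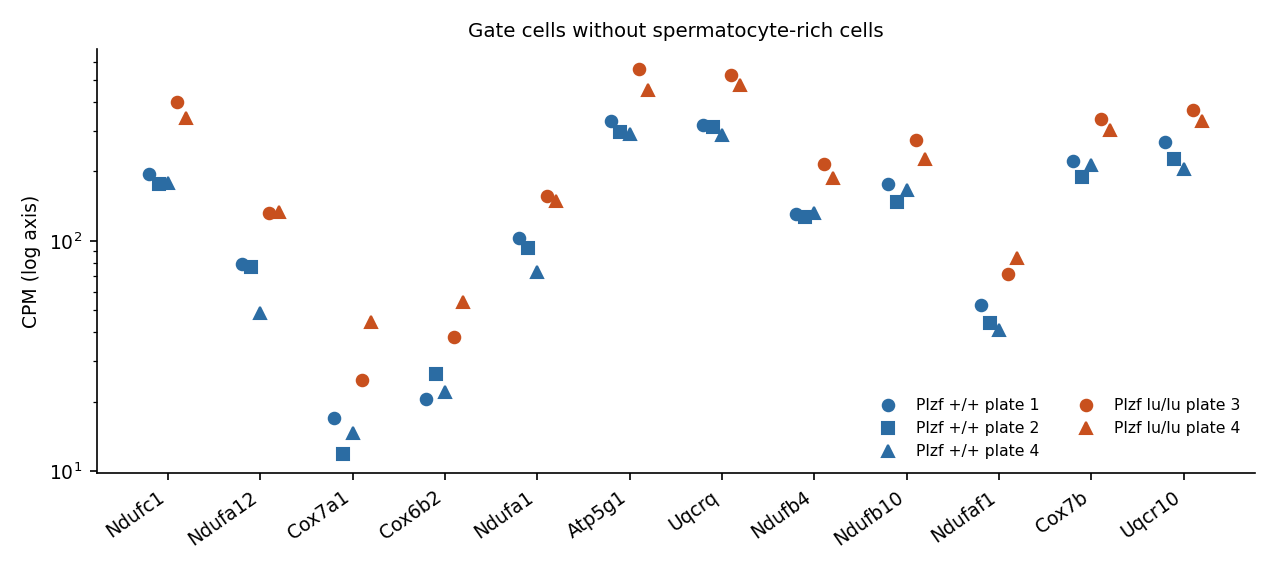
CPM (log axis) in each library for the 12 called members with the largest log2 fold change in gate cells without spermatocyte-rich cells, blue for Plzf +/+ and orange for Plzf lu/lu libraries. For each of these genes both orange points lie above the 3 blue points, for Ndufc1 at 341 and 400 CPM against 176 to 195 CPM; Cox6b2 and Cox7a1 are the lowest in level.

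Genes around the chain were followed with lists of 74 symbols, 69 of them in the tables, covering regulators of mitochondrial biogenesis, further assembly factors, electron carriers and exchangers, and the tricarboxylic acid cycle. In gate cells without spermatocyte-rich cells 10 of 66 tested were called, all higher in Plzf lu/lu, beside the 7.72% of all genes called higher. The cycle supplied 5 of 13: Idh3g and Idh3b of the NAD-linked isocitrate dehydrogenase, Suclg1 of succinyl-CoA ligase, citrate synthase Cs and fumarase Fh1. Idh3g was at 48.9, 43.8 and 41.1 against 110 and 79.0 CPM (log2 1.21 ± 0.18 SE, edgeR adjusted p = 1.09e-05) and Suclg1 at 253, 206 and 215 against 360 and 454 CPM (0.80). Of the electron carriers and exchangers, the germline cytochrome c gene Cyct (0.74) and the ADP/ATP translocase gene Slc25a5 (0.46) were called, 2 of 9. Of 33 assembly factors Surf1 (0.75) and Pet100 (0.74), which build complex IV, were called. Of 11 regulators only Slirp, which stabilises mitochondrial mRNAs, was called (0.47). Nrf1 (0.01), Gabpa (-0.50), Yy1 (-0.11), Tfam (0.15) and Tfb2m (-0.65) were not. In all cells 0 of 67 genes of these lists were called by edgeR, with 13 at an unadjusted p under 0.05, 12 of them higher. Of all 13728 genes 14.2% were in either direction, and 1175 were higher.

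In Gfra1-positive cells alone, 2 of 95 members were called higher in Plzf lu/lu and 0 lower, where 0.812% of all genes were called higher and 0.862% lower. Atp5g1 was at 287, 257 and 214 against 510 and 443 CPM (log2 0.94 ± 0.18 SE, edgeR adjusted p = 0.0177). Cox7b was at 227, 166 and 200 against 355 and 349 CPM (0.84 ± 0.19 SE, edgeR adjusted p = 0.0411). In both genes the groups were apart. Idh3g (1.25) and Suclg1 (0.78) were called among the pathway genes. DESeq2 called 0 members, with 8 at an unadjusted p under 0.05, where 5.84% of all genes were. Leaving out single libraries gave 0 to 8 members, 0 without Plzf lu/lu replicate 1 or Plzf +/+ replicate 3, 1 without Plzf lu/lu replicate 2 or Plzf +/+ replicate 1 and 8 without Plzf +/+ replicate 2, all higher, where 3.74% of all genes were. Without spermatocyte-rich cells the count was 18, all higher, where 4.37% of all genes were.

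Whether the genotype difference itself varied between Gfra1-positive and Gfra1-negative cells was tested as an interaction. It was called for 0 of 95 members (edgeR; 3 at an unadjusted p under 0.05, where 3.07% of all genes were; DESeq2 0 and 0), where 0.01% of genes were called higher and 0.02% lower. The share of members at that unadjusted p was near that of all genes. The 3 members were mt-Cytb (-0.51), mt-Nd4 (-0.51) and mt-Nd1 (-0.41), and the count was 0 without Plzf lu/lu replicate 2, 5 without Plzf +/+ replicate 1 and 13 without Plzf lu/lu replicate 1, where 3.49 and 8.17% of all genes were for the last 2. For mt-Cytb it was 5044, 5305 and 5229.8 in Plzf +/+ against 4498 and 2993 in Plzf lu/lu Gfra1-negative cells, the last value from 12 cells.

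Gfra1-negative cells of both genotypes were set against Gfra1-positive cells, and 1 member was called. The undifferentiated list was lower in Gfra1-negative cells in 5 of 5 libraries (0.166 against 0.199% of UMIs on average). That list includes Gfra1, whose UMIs define the classes, so its order is not independent of the split. The G2 and mitosis list (0.326 against 0.273%), the spermatocyte list (0.152 against 0.1185%), the spermatid list (0.0473 against 0.0374%) and the somatic list (0.0196 against 0.0161%) were each higher in 4 of 5, and their part in the values below was not tested. The nuclear share was higher in Gfra1-negative than in Gfra1-positive cells in 5 of 5 libraries, by 0.360 ± 0.340 percentage points (SD of the 5 differences), and by 0.220 ± 0.154 without Plzf lu/lu replicate 2. The mitochondrial share was higher in 4 of 5, by 0.0748 ± 0.218, by 0.157 without Plzf lu/lu replicate 2 and by 0.00727 without Plzf +/+ replicate 2. Only mt-Nd3, a small core subunit gene of complex I, was called (1 higher of 94 members; 0.446% of all genes higher and 0.374% lower). In Gfra1-positive cells it was at 283, 224 and 470 CPM in Plzf +/+ and 229 and 293 in Plzf lu/lu libraries, and in Gfra1-negative cells at 385, 331 and 587 and at 375 and 706 CPM. It was higher in 5 of 5 libraries (log2 0.57 ± 0.12 SE, edgeR adjusted p = 0.0133). With cells thinned to equal depth mt-Nd3 was no longer called (log2 0.33, edgeR adjusted p = 0.293), and 2 nuclear members were called higher, where 0.802% of all genes were. The medians were 0.18 for nuclear members (76 of 86 above 0), 0.19 for mitochondrial members (8 of 8) and 0.00 over all genes. With Gfra1-positive taken from 2 UMIs on, 16 members were called higher, where 2.14% of all genes were, and without spermatocyte-rich cells 20, where 3.59% of all genes were called higher. Leaving out single libraries gave 0 to 13, 0 without Plzf lu/lu replicate 1, Plzf +/+ replicate 1 or Plzf +/+ replicate 3 and 13 without Plzf +/+ replicate 2, all higher, where 2.11% of all genes were. The Plzf +/+ libraries alone gave 0. All genes fitted gave 37 higher and 31 lower calls, and 25 and 43 without TMM scaling.

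Kit/Stra8-positive cells were set against the same Gfra1-positive cells, in the 4 libraries with at least 10 cells of each, so both comparisons share them. The nuclear share was higher in Kit/Stra8-positive cells in 4 of 4 libraries, by 0.170 ± 0.0772 percentage points. Of 95 members 6 were called higher and 1 lower, beside 1.89% and 2.13% of all genes. Ndufa2, of complex I, was higher in 4 of 4 libraries, at 301, 375, 324 and 433 CPM in Gfra1-positive and 445, 468, 436 and 563 CPM in Kit/Stra8-positive cells of Plzf +/+ replicates 1, 2 and 3 and Plzf lu/lu replicate 1 (log2 0.42 ± 0.08 SE, edgeR adjusted p = 0.00822). Atp5f1 (0.44), Cox7a2 (0.36), Ndufb8 (0.34), Ndufa11 (0.34) and Cox5b (0.28) were also higher. Cox7a2l was lower (-0.36). Cox5b and Cox7a2l have near-identical copies. The mitochondrial members had 0 calls and a median of 0.09. The G2 and mitosis list was higher in Kit/Stra8-positive cells in 4 of 4 libraries (0.403 against 0.295% of UMIs on average). The spermatocyte list (0.184 against 0.128%), the spermatid list (0.0592 against 0.0366%) and the somatic list (0.0167 against 0.0111%) were each higher in 3 of 4. The part of these lists in the calls was not tested. Among pathway genes the copper chaperone gene Cox17 was higher (0.42), and Slc25a4 (-0.51) and Timmdc1 (-0.61) were lower. DESeq2 called 0 members, with 11 at an unadjusted p under 0.05, where 6.54% of all genes were. Leaving out single libraries gave 0 to 6 calls, 0 without Plzf +/+ replicate 1 and 1 without Plzf +/+ replicate 2. Without spermatocyte-rich cells 15 members were called, 13 higher, where 4.77% of all genes were.

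**Figure D4:**
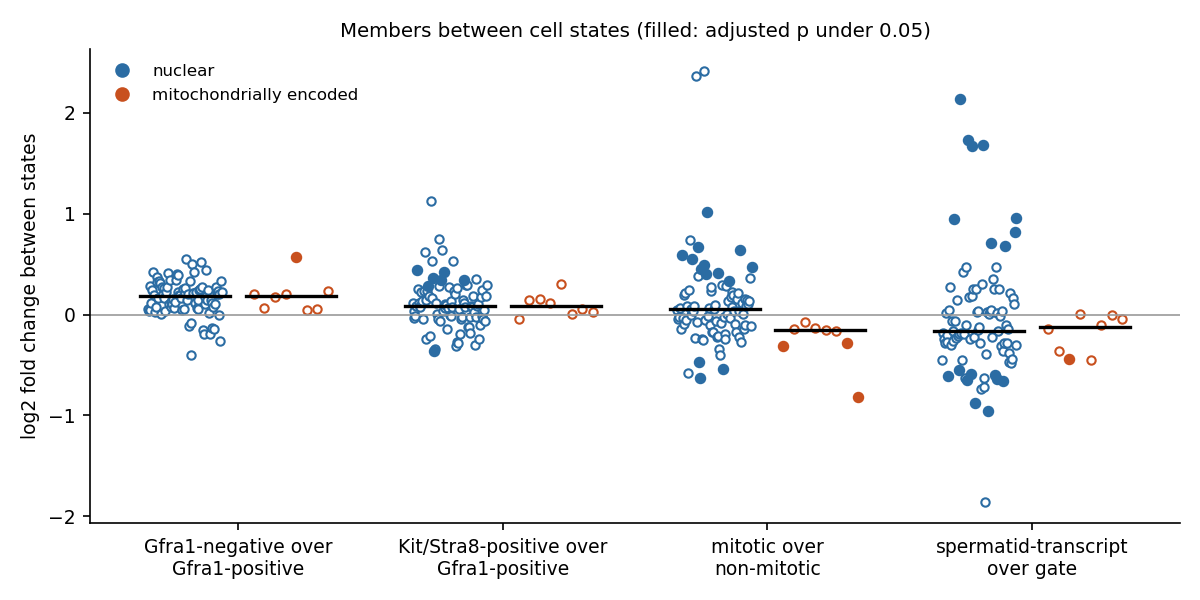
Log2 fold change of each member in the 4 comparisons of cell states, with nuclear members in blue, mitochondrial members in orange, black bars for the medians and filled points for an edgeR adjusted p under 0.05. Gfra1-negative cells show 1 filled point, mt-Nd3; the mitochondrial members all lie below 0 in mitotic cells; spermatid-transcript cells have filled points on both sides of 0.

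Cells high for G2 and mitosis genes were compared with cells low for them. Within each library the gate cells were cut into 3 equal parts by the share of that list, the highest part was set against the lowest, and 11 of 94 members were higher and 6 lower, beside 10.2% and 7.55% of all genes, so the members were called about as often as other genes. The mitochondrial share of UMIs was lower in 3 of 5 libraries, by a mean difference of -0.140 ± 0.217 percentage points (-0.0751 without Plzf +/+ replicate 2 and -0.0868 without Plzf lu/lu replicate 1), and as a mean over single cells it was higher in 3 of 5. All 8 mitochondrial members tested lay below 0, with a median of -0.15, and mt-Nd6 (-0.81), mt-Co1 (-0.31) and mt-Nd5 (-0.28) were called. These 3 calls became 0 with cells thinned to equal depth, where mt-Nd1 lay at 0.02, 0 without Plzf +/+ replicate 3, and 1, mt-Nd6, with DESeq2, without Plzf +/+ replicate 2 or without Plzf lu/lu replicate 1. mt-Nd6 was lower in 5 of 5 libraries, at 31.4, 26.1 and 40.0 CPM in the highest part against 57.4, 34.9 and 87.3 CPM in the lowest in Plzf +/+, and at 43.8 and 63.5 against 60.01 and 232 CPM in Plzf lu/lu (edgeR adjusted p = 0.00709). Among nuclear members Ndufa12 rose by 1.02, Cox7a2 by 0.67, Ndufv2 by 0.64, Atp5f1 by 0.59 and Cox5a by 0.55 on the log2 scale. Ndufa1, Uqcrq, Cox7b2, Ndufaf2, Ndufa11 and Ndufb8 were also higher, by 0.34 to 0.49, but Cox7b2 turned to -0.029 without spermatocyte-rich cells. Cox7b (-0.63), Ndufb11 (-0.54) and Cox7a2l (-0.47) were lower, each in 5 of 5 libraries. The nuclear median was 0.05 and that of all genes -0.02. The spermatocyte list moved with these parts, at 0.0780 to 0.264% of UMIs in the highest and 0.0576 to 0.0806% in the lowest. The undifferentiated list was lower in the highest part in 5 of 5 libraries (0.162 against 0.215% on average) and the differentiating list higher in 5 of 5 (0.0626 against 0.0334%), and the part of these lists in the calls was not tested. Without spermatocyte-rich cells 18 members were called, 12 higher and 6 lower, beside 8.36% and 7.23% of all genes. With cells thinned to equal depth 6 were higher and 2 lower, beside 5.76% and 3.27%, and without Plzf +/+ replicate 3 there were 8 and 3, beside 6.97% and 3.86%.

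Spermatocyte-rich and spermatid-transcript cells had the lowest mitochondrial shares. In spermatocyte-rich gate cells it was 0.911, 0.821 and 1.04% in Plzf +/+ and 1.01 and 1.68% in Plzf lu/lu libraries, the last from 2 cells. In the other gate cells the lowest library was at 1.40%, and in the 4 libraries with at least 5 spermatocyte-rich cells the difference was -0.548 ± 0.142 percentage points (lower in 4 of 4). As a mean of the shares of single cells, which gives shallow cells equal weight, it was -0.192 ± 0.196 (lower in 3 of 4). The nuclear share of spermatocyte-rich cells was 2.99, 3.00, 2.68, 3.17 and 3.19% in the same order. In spermatid-transcript cells both shares were lower than in gate cells in 4 of 4 libraries, the mitochondrial by 0.494 and the nuclear by 0.670 percentage points, and nuclear UMIs per mitochondrial UMI were higher in 4 of 4. These cells express spermatid messages such as Prm1 and Tnp1 after a sort for spermatogonia, and whether they are spermatids, doublets or cells with free RNA was not tested.

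In spermatid-transcript against gate cells the fit called 9 of 95 members higher and 10 lower, beside 22.2% and 7.44% of all genes. Higher were Cox6b2 (2.14), Cox8c (1.73), Ndufaf3 (1.68), Ndufa12 (1.67), Uqcrq (0.96), Atp5s (0.95), the Rieske protein gene Uqcrfs1 (0.82), Ndufb5 (0.71) and Ndufv2 (0.68). Lower were Ndufb11 (-0.95), Ndufa4 (-0.88), Ndufs8 (-0.66), Cox8a (-0.65), Ndufc2 (-0.64), Atp5g3 (-0.61), Ndufb9 (-0.60), Ndufa11 (-0.59), Cox6b1 (-0.55) and mt-Nd1 (-0.44). Somatic isoforms and their germline partners thus stood on opposite sides for Cox6b1 and Cox6b2 and for Cox8a and Cox8c. In these cells the spermatocyte list (0.440 against 0.1501% of UMIs on average) and the somatic list (0.0959 against 0.0139%) were also higher in 4 of 4 libraries, and their part in these calls was not tested. The count depended on scaling: without TMM 5 members were higher and 46 lower, with the median of all genes moving from -0.11 to -0.49 and the calls over all genes from 2462 higher and 827 lower to 2041 higher and 2941 lower. Cox6b2, the first of these, was at 40.6, 203, 117 and 138 CPM in gate cells and 273, 679, 779 and 393 CPM in spermatid-transcript cells of Plzf +/+ replicates 1, 2 and 3 and Plzf lu/lu replicate 1 (edgeR adjusted p = 4.46e-09). Among pathway genes 7 were higher and 6 lower. Without Plzf +/+ replicate 2 or 3 the members called numbered 9 each, 5 of them higher, where 17.1 and 17.4% of all genes were called higher.

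Isoform use within pairs differed between the states, over the 4 libraries with at least 5 cells of each class. Cox6b2 made up 78.1% ± 3.10 (SD, n = 4 libraries) of the UMIs of Cox6b1 and Cox6b2 in spermatocyte-rich gate cells and 4.67% ± 1.38 in the other gate cells. The ranges were 74.6 to 81.3% and 3.68 to 6.68%, apart in every library. Cox8c made up 84.8% ± 3.50 of the Cox8a and Cox8c UMIs against 7.81% ± 0.322, and Cox7b2 89.2% ± 4.72 of its pair with Cox7b against 53.0% ± 4.95. Each was higher in 4 of 4 libraries, at the smallest p that the exact sign-flip permutation test over 4 libraries allows (two-sided p = 0.125), so this test could not pass 0.05. In spermatid-transcript cells the shares were 61.2% ± 11.4 for Cox6b2, 65.8% ± 19.0 for Cox8c and 74.4% ± 15.0 for Cox7b2. Cox7b2 was thus about as frequent as its partner in spermatogonia, whereas Cox6b2 and Cox8c were minor there. Ndufa4l2 had low counts, 34 of 256 UMIs of its pair with Ndufa4 (13.3%) in spermatocyte-rich cells against 0.182%.

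Between the genotypes the shares of these pairs were also set side by side; values that do not overlap between 3 and 2 libraries are common, as for the CPM of 18.5% of all genes above and 15.97% below in all cells. In gate cells without spermatocyte-rich cells Cox7b2 held 55.1, 55.7 and 55.7% of its pair in Plzf +/+ and 45.6 and 45.5% in Plzf lu/lu libraries, with no overlap, and Cox7b was the member called there. The Cox6b2 share of its pair was 3.68, 4.46 and 3.86% against 6.68 and 11.1%, the last from 11 Cox6b2 UMIs. The Cox8c share was 7.79, 7.92 and 8.16% against 7.39 and 8.21%. At an equal depth of 2000 UMIs per cell, Cox8c was detected in 69.0% of spermatocyte-rich and 11.2% of other gate cells, Cox6b2 in 43.7 and 4.71% and Cox7b2 in 63.4 and 39.3%. The cells above the somatic threshold, which should lack these germline isoforms, gave 42.3% for Cox8c, 34.6% for Cox6b2 and 26.9% for Cox7b2 over 26 cells. The shares of 11.2 and 4.71% in other gate cells lie below these, so detection alone was not read as expression there. For Cox6b2 the exact 95% interval of spermatocyte-rich cells (31.9 to 56.0%) overlapped that of the somatic cells (17.2 to 55.7%). This reference is itself mixed: Dazl was detected in 7 of the 40 cells above the somatic threshold, and Plzf lu/lu replicate 1 gave 45 of their 53 Cox8c and 24 of their 30 Cox6b2 UMIs. The source of the Cox6b2 difference between the genotypes was not tested. Median depths before thinning were 10035, 6117 and 3297 UMIs in the thinned spermatocyte-rich, other gate and somatic cells, and over all UMIs the detected shares of Cox8c were 77.9, 25.8 and 42.5%.

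**Figure D5:**
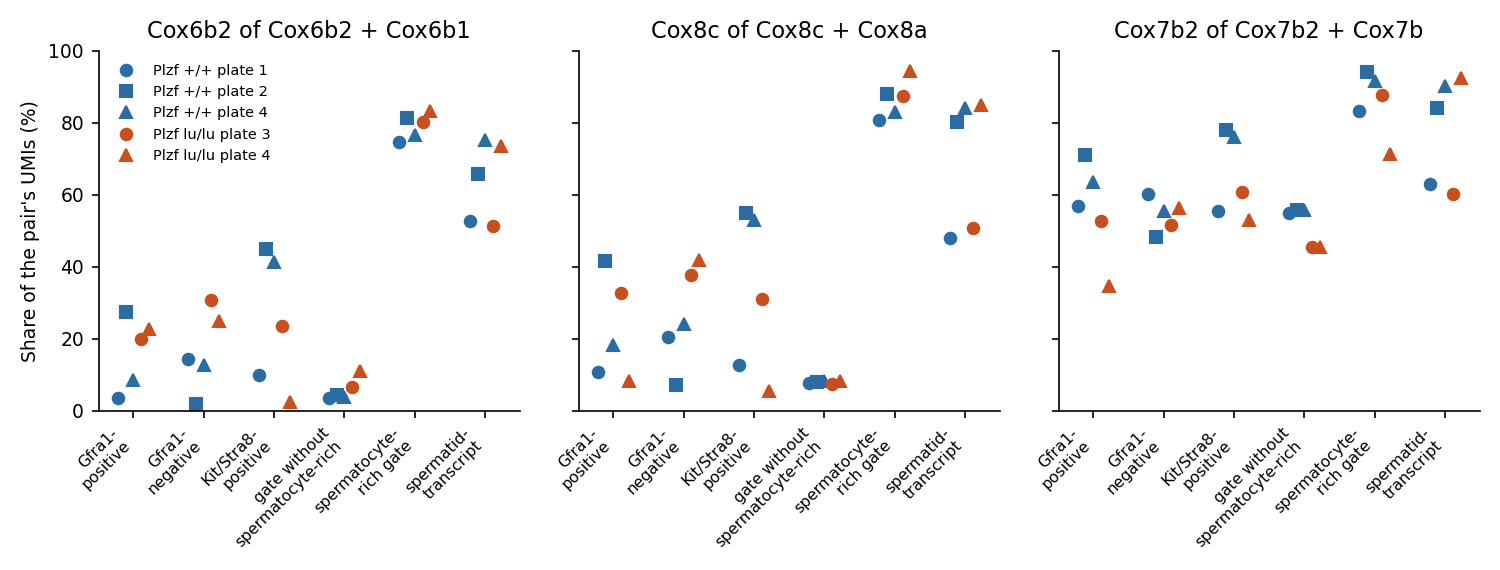
Share of each isoform pair's UMIs (%) held by the germline isoform, for Cox6b2, Cox8c and Cox7b2, in each library by cell class, blue for Plzf +/+ and orange for Plzf lu/lu. Plzf lu/lu replicate 2 has 2 spermatocyte-rich and 3 spermatid-transcript cells. Cox6b2 is at 74.6 to 83.3% in spermatocyte-rich gate cells and Cox6b2 and Cox8c are low in the other gate cells, while Cox8c in Plzf +/+ replicate 3 and Cox7b2 in Plzf lu/lu replicate 2 are higher in spermatid-transcript than in spermatocyte-rich cells.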

How the data were processed

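Testis cells of mice aged 4 wk, sorted singly on tdTOMATO, were measured as 3 Plzf +/+ and 2 Plzf lu/lu libraries. The authors deposited 1 table of raw UMI counts per genotype, with a row per gene symbol and a column per cell and no normalization; the submitters' processing notes name bcl2fastq 2.18.0.12, Picard 2.9.3, STAR 2.5.4a and build GRCm38. How reads with several matches were counted is not given in the sources used here. A cell's plate and table gave its library and genotype; on plate 4, 5 Plzf +/+ cells sit in wells that the labels give to Plzf lu/lu. No cells or doublets were removed; 23 cells lie near the somatic and 75 near the spermatid threshold (0.25 to 1% of UMIs).

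UMI counts were summed per library and class, with at least 10 cells per sum (5 for spermatid-transcript and spermatocyte-rich cells), filtered by filterByExpr, scaled by TMM and tested with glmQLFit and glmQLFTest of edgeR 4.0.16 in R 4.3.3 (robust; Benjamini-Hochberg adjusted p under 0.05 over all genes tested), with the library as a block between states. The fits of genotype in all cells and of Gfra1-negative against Gfra1-positive cells were tested on simulated data. There the genotype fit missed most changes of 1 on the log2 scale, the smallest simulated, and made some false calls. Smaller changes were not simulated. The other fits, by the same test, were not tested on simulated data. All log2 fold changes are fitted values and CPM use TMM library sizes. Of the members, 96 of 104 passed the filter in all cells. Alternatives were DESeq2 1.42.0, no TMM, no filter, mitochondrial rows left out, cells thinned to 2000 UMIs (seed 1; 82 cells were below this), other thresholds and each library left out. Transcript ends were searched for copies with blastn 2.17.0 in NCBIM37, which is not the build of the files, and its coordinates are given for that build only. Promoter sequences are from RefSeq.

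The members, lists and tests were chosen with earlier results of these data known. Named genes are the mitochondrial members, up to 12 called nuclear members in each direction by size of the log2 fold change, the complex II genes, the isoform pairs and the c subunit genes; the other genes named outside that rule were chosen after their values were seen. Comparisons between genotypes share libraries and those between states share Gfra1-positive or gate cells, so they are not independent. In these sums fewer cells of a type and less RNA per cell cannot be told apart.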

Additional observations from a re-analysis of the deposited data

How the results depend on the processing

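Most counts of called members changed with the settings, as did the calls over all genes, and the causes were not tested. Between genotypes in all cells, 0 members became 5 without a filter, 14 with thinned cells, 3 in gate cells and 39 in gate cells without spermatocyte-rich cells, and 0 to 28 with a library left out. In Gfra1-positive cells 2 became 0 with DESeq2, 18 without spermatocyte-rich cells and 0 to 8 with a library left out. For Gfra1-negative cells 1 became 2 with DESeq2, without a filter and with thinned cells (there without mt-Nd3), 0 without mitochondrial rows or in Plzf +/+ libraries alone, 16 with Gfra1 from 2 UMIs, 20 without spermatocyte-rich cells and 0 to 13 with a library left out. Over all genes 68 of 8289 calls became 49 with DESeq2 and 99 of 23683 without a filter. For Kit/Stra8-positive cells 7 became 0 with DESeq2, 4 without a filter, 2 with thinned cells, 15 without spermatocyte-rich cells and 0 to 6 with a library left out. Over all genes 383 of 9546 calls became 61 with DESeq2 and 676 of 24166 without a filter. They were 174 of 4110 with thinned cells and 815 of 8834 without spermatocyte-rich cells. For spermatid-transcript cells 19 became 11 with DESeq2, 51 without TMM, 10 with thinned cells, 32 and 5 at spermatid thresholds of 0.2 and 2% and 9 to 20 with a library left out. Over all genes 3289 of 11115 calls became 2638 with DESeq2, 4982 without TMM and 960 of 5600 with thinned cells. At those thresholds they were 4663 of 11058 and 2028 of 11424, and without Plzf lu/lu replicate 1, which gave the 20, 3589 of 11233. For mitotic cells 17 became 8 with thinned cells and 11 to 19 with a library left out. Over all genes 1474 of 8293 calls became 345 of 3819 with thinned cells. Without Plzf +/+ replicate 1, which gave the 19, they were 1436 of 8078. In gate cells without spermatocyte-rich cells, 39 became 13 with DESeq2 and 6 to 39 with a library left out, and thresholds of 0.1 and 0.4% gave 40 and 36. Over all genes 1745 of 11809 calls became 359 with DESeq2. They were 1563 of 11021 at 0.1% and 1712 of 11927 at 0.4%. With a library left out, the genotype difference in the nuclear member share of UMIs ran from 0.284 to 0.574 percentage points and that in the mitochondrial share of UMIs from -0.112 to 0.0012. Between genotypes Cox6b2 turned from -0.20 in all cells to 0.83 in gate cells without spermatocyte-rich cells. That step also left out the cells above the somatic and spermatid thresholds. In mitotic cells Cox7b2 turned from 0.45 to -0.029 without spermatocyte-rich cells. In gate cells without spermatocyte-rich cells Sdhd ran from -0.036 without Plzf lu/lu replicate 1 to 0.65 without replicate 2. The settings without spermatocyte-rich cells, and all alternatives of that comparison, were chosen after seeing the data. Plzf lu/lu replicate 2 had 38 cells.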

Other observations

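Across single gate cells, a higher nuclear share went with a higher mitochondrial share only loosely. Spearman's rho between both shares was 0.40, 0.13 and 0.15 in Plzf +/+ replicates 1, 2 and 3 (304, 264 and 253 cells) and 0.23 and -0.18 in Plzf lu/lu replicates 1 and 2 (278 and 32 cells), a description over cells that share a library and whose shares have a common denominator. The cells of Plzf +/+ replicate 1 spanned nuclear shares of 1.84 to 3.70% and mitochondrial shares of 0.897 to 2.30% from the 10th to the 90th percentile, and those of Plzf lu/lu replicate 1 spanned 2.59 to 4.21% and 0.673 to 2.29%.

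The 40 cells above the somatic threshold had the highest mitochondrial shares of all classes, pooled at 2.04% in Plzf +/+ (16 cells) and 2.19% in Plzf lu/lu (24 cells), with 1.16 and 1.23 nuclear UMIs per mitochondrial UMI. Only 2 libraries had at least 5 such cells, and in both the mitochondrial share was above and the nuclear share below that of gate cells, by 1.02 and -0.493 percentage points on average. The germ cell marker Dazl was detected in 7 of these 40 cells. They were shallow, at a median of 2503 UMIs.

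All mitochondrial rows together, which add ribosomal and transfer RNA genes to the members, held 5.47, 4.16 and 5.71% of UMIs in Plzf +/+ and 4.54 and 4.58% in Plzf lu/lu libraries, so the groups overlapped.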
